A study of Mus musculus with 24 samples.

Results

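The complement system is represented here by 9 genes, C1ra, C1s1, C2, C3, C4b, Cfb, Serping1, Cd55 and Cd59a, whose transcript levels were read from RNA sequencing of mouse cells during reprogramming to induced pluripotent stem cells (iPSCs). The genes were taken by name from the table of 37315 genes through the GENCODE vM21 annotation, and all 9 were found in it. The cells were of the PaX line, a female embryonic stem cell (ESC) line of hybrid 129S1/SvImJ and CAST/EiJ origin that carries a GFP reporter on the M. musculus X chromosome (X-GFP), a truncated Tsix, a doxycycline-inducible reprogramming cassette and a pluripotency reporter, so every population compared is of one engineered line. ESCs were differentiated into neural precursor cells (NPCs), and NPCs were reprogrammed with doxycycline, ascorbic acid and LIF on irradiated male mouse embryonic fibroblast feeders, without (control) or with interferon gamma (IFNγ) at 10 ng/ml until day 5. Cells were collected at day 2 as the cells that lacked the CFSE stain given to the feeders, at day 5 as SSEA1-positive cells, and at day 7, 2 days after IFNγ had been withdrawn, as SSEA1-positive cells that were X-GFP–negative, X-GFP–medium or X-GFP–high. There were 24 libraries, 2 for each of 12 populations, with 24746109 to 37056508 reads on genes, and the comparisons ask how IFNγ moved these genes at each stage and how they moved along reprogramming without it.

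Complement is a set of blood and tissue proteins that mark and lyse targets and recruit immune cells. In the classical pathway, the C1 complex, whose proteases are C1r and C1s, cleaves C4 and C2, whose fragments join into an enzyme that cleaves C3, the component on which all routes converge; factor B does the work of C2 in the alternative pathway. Host cells hold the cascade in check with C1 inhibitor, a secreted serpin that inactivates C1r and C1s, with CD55, a membrane protein that speeds the decay of the C3-cleaving enzymes, and with CD59, which blocks the final pore. Several of these genes are known targets of interferon signalling through IRF1.

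In GRCm38 (mm10) coordinates, the C1r and C1s proteases are encoded by C1ra, chr6:124512405-124523443 on the plus strand, and C1s1, chr6:124530345-124542359 on the minus strand, which lie next to each other. C4b (chr17:34728380-34743882 on the minus strand), Cfb (chr17:34856374-34862518 on the minus strand) and C2 (chr17:34862604-34898265 on the minus strand) lie in the class III region of the major histocompatibility complex, and C3 lies elsewhere on the same chromosome at chr17:57203970-57228136 on the minus strand. The regulators are Serping1, which encodes C1 inhibitor (chr2:84765387-84775444 on the minus strand), Cd55 (chr1:130439027-130462744 on the minus strand) and Cd59a (chr2:104095801-104115354 on the plus strand). All 9 are protein-coding. Reads were counted over exons, and for Cfb 79.5% of the exon bases, and for C2 42.8%, are also exon bases of Gm20547, a gene model that runs through both on the same strand and was listed at 0 in all 24 libraries. Reads that a counter cannot place between overlapping genes are commonly dropped, so the levels of Cfb and C2 may be low for that reason, which was not tested. C1ra, C1s1, C4b, Cd55 and Cd59a each have a close copy (C1rb, C1s2, C4a, Cd55b and Cd59b), and reads shared between copies make their levels uncertain to that extent.

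Because several members rose with IFNγ, the 250 bases before the start of transcription were examined for the IRF-type motif GAAANNGAA on both strands. RefSeq promoters on GRCm38.p6 were held for 5 members, C1ra, C1s1, C3, Cd55 and Cd59a. The starts are those of RefSeq. The C1ra window (chr6:124512371-124512620) lies mostly inside the gene as placed above, and C1s1 has 2 start sites, of which the first is printed. The motif was not found for C1ra, C1s1, C3 or Cd55, and the upstream bases of Cd59a held 1 match. Over all 32851 promoters of the same length, 7.13% held the motif. Cd59a did not pass as different with IFNγ at day 2 or day 5, while IFNγ was present. It was higher in treated X-GFP–negative and X-GFP–medium cells of day 7 but not in X-GFP–high cells. C1s1 and C3 were higher with IFNγ at day 2. C1s1 was lower in each treated population of day 7, and C3 did not pass after day 2. A link between the motif and these levels was not tested. The sequences of C1s1 (chr6:124542360-124542609, minus strand), C3 (chr17:57228137-57228386, minus strand) and Cd59a (chr2:104095551-104095800, plus strand) are given 5′ to 3′, with the motif match in capitals.
C1s1: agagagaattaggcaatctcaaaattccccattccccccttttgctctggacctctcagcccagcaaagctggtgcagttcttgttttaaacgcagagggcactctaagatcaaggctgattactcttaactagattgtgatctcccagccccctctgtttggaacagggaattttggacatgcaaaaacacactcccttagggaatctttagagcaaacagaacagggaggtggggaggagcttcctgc
C3: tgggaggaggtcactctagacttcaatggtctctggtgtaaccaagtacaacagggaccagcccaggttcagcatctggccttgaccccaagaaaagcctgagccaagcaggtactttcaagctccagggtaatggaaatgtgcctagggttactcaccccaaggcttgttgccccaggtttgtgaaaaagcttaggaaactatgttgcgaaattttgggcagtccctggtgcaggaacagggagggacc
Cd59a: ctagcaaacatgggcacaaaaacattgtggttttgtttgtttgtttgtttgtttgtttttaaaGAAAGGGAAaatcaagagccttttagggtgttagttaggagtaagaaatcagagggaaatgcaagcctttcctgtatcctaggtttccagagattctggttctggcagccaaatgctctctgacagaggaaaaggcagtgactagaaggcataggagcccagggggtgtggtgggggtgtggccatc
The absence of a match says only that these letters are not in this window.

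Values are normalized counts, read counts that the authors divided by a size factor for each library. The labels of the treatment were checked with the interferon-response genes Irf1 and Gbp2: at day 2, Irf1 was at 424 and 327 in the control libraries and at 7947 and 7484 in the IFNγ-treated libraries, and the log2 differences were 4.37 ± 0.12 for Irf1 and 5.51 ± 0.15 for Gbp2 (± SE). Transcripts of other cells were followed with marker lists. The summed level of 4 Y-linked genes, which the female line lacks and the male feeders carry, was 218 to 253 in the control and 125 to 223 in the IFNγ-treated libraries at day 2, with none of the 4 genes at 0, and 0 to 12.5 in every other population. The summed level of 8 fibroblast genes was 41396 to 61408 in the day 2 control and 25195 to 30729 in the day 2 IFNγ-treated libraries, and it was 30196 to 43108 in NPCs, so these genes do not mark fibroblasts alone here. The part of these transcripts in the day 2 results was not tested. Of 6 macrophage genes, Cd68 made up most of the sum at day 2, where Aif1 was at 0 and 0.993 in the control and at 0.935 and 0 in the IFNγ-treated libraries. In bulk libraries, fewer cells of a type and less RNA per cell cannot be told apart.

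**Figure D1:**
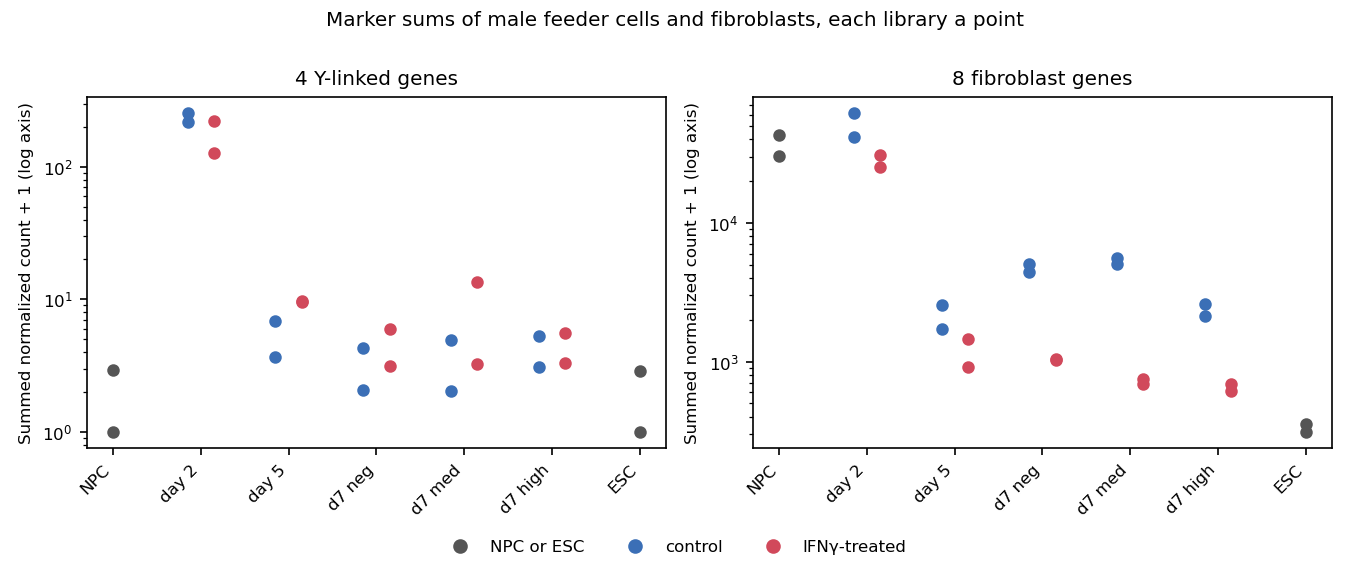
Summed normalized counts + 1 (log axis) of 4 Y-linked genes (left) and 8 fibroblast genes (right) in each library, by population, with NPC and ESC in grey, control in blue and IFNγ-treated in red. The Y-linked sum is high at day 2 in both arms, and at day 2 the fibroblast sum is lower in the IFNγ-treated libraries than in the control libraries.

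At the start and the end of the path, most complement genes were low. In NPCs, C3 was at 4.86 and 2.64 normalized counts, C4b at 4.86 and 3.51, C1ra at 10.7 and 14.9 and C1s1 at 46.7 and 74.7. In ESCs, C3 was at 0.983 and 2.85, C4b at 14.7 and 3.81, C1ra at 1.97 and 4.76 and C1s1 at 115 and 122. Per length, the membrane regulators led in ESCs: Cd59a was at 91.8 normalized counts per kb of exon, Cd55 at 71.5, ahead of C1s1 at 37.8 and Serping1 at 25.2, against 2.62 for C2, 1.63 for C4b, 1.13 for C1ra and 0.373 for C3. For each gene the 12 populations were ordered by their group means. The 2 libraries of neighbouring groups stood apart in 9 of 11 places for C1s1, 8 for Serping1 and Cd59a and 6 for C1ra. They did so in 5 for Cd55, 4 for C3 and C4b, 3 for C2 and 2 for Cfb. In the other places neighbours overlapped. The same count was not made over all genes, so these numbers do not set the members apart from other genes.

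**Figure D2:**
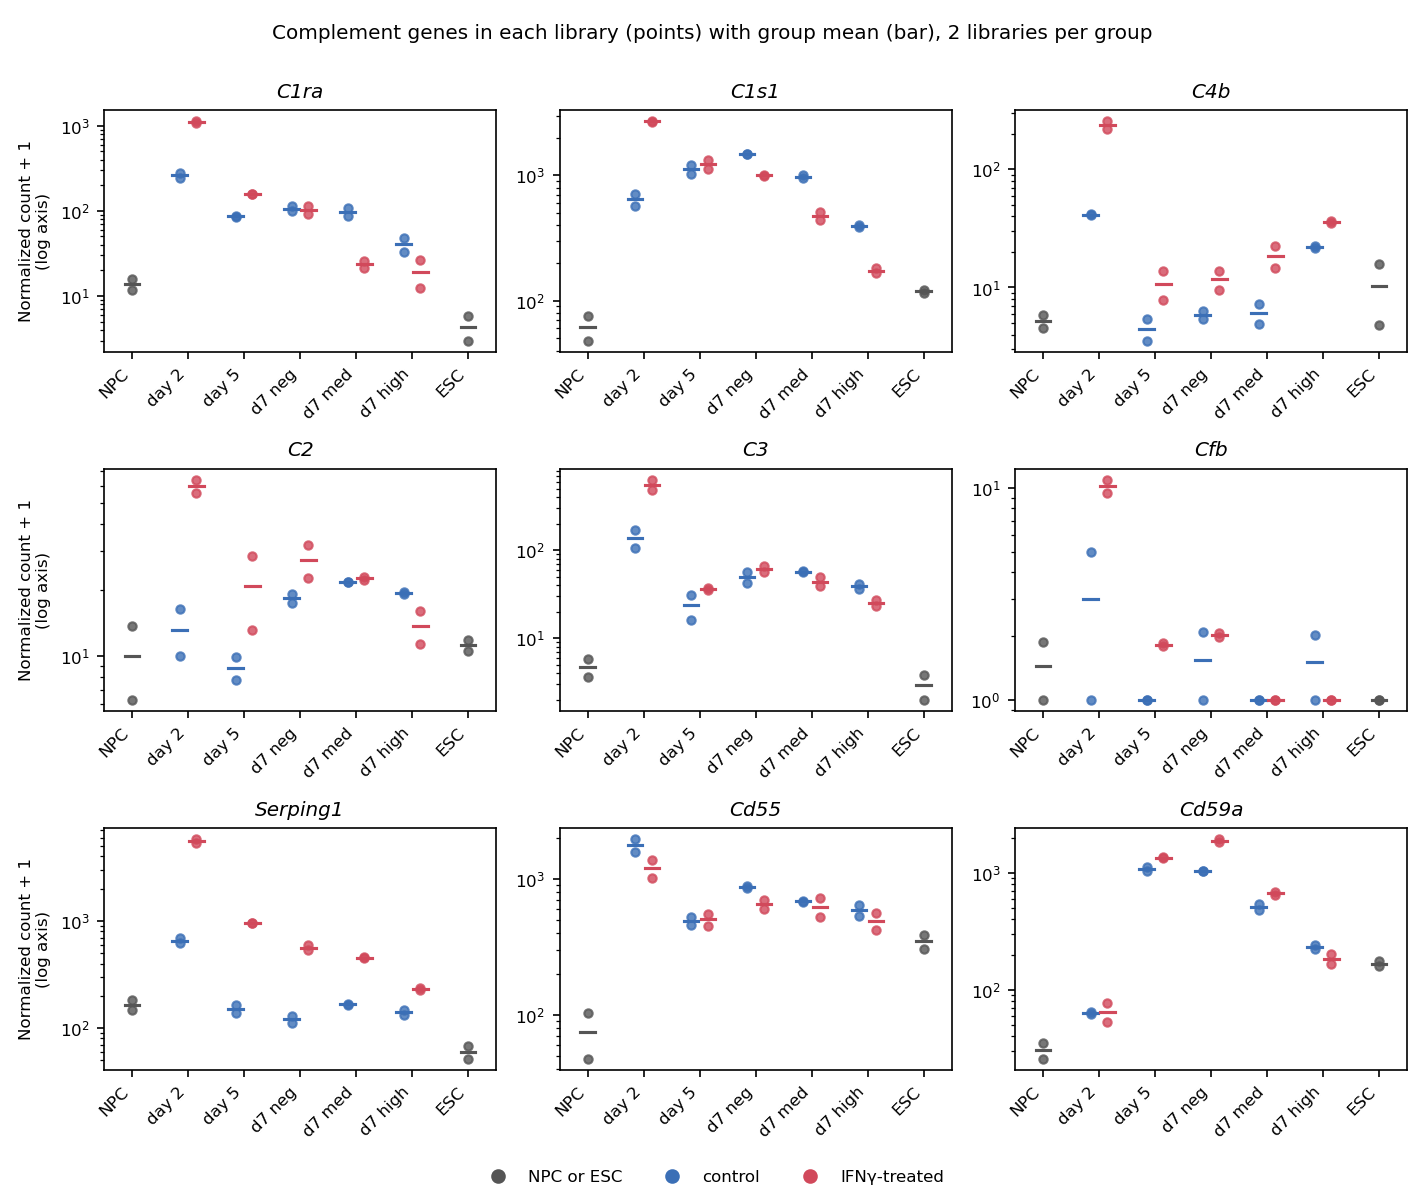
Normalized count + 1 (log axis, a separate scale for each gene) of the 9 complement genes in each library (points) with the mean of each group (bars), from NPCs through days 2, 5 and 7 to ESCs. C1ra, C1s1, C2, C3, C4b, Cfb and Serping1 have their highest group mean in the day 2 IFNγ-treated cells, Cd55 in the day 2 control and Cd59a in the day 7 X-GFP–negative IFNγ-treated cells.

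Without IFNγ, most members rose at the first step of reprogramming. From NPCs to day 2 control, 7 of the 8 members that could be tested were higher and 0 were lower (limma on log2 of the normalized count + 1, adjusted p under 0.1, with log2 differences given ± SE, as in all tests here), where 31.6% of all tested genes were higher and 37.6% lower. C3 was at 167 and 105 at day 2, a log2 difference of 4.85 ± 0.40, adjusted p = 2.24e-04. Cd55 went from 46.7 and 102 to 1961 and 1582 (4.65 ± 0.35, adjusted p = 1.84e-04), and its libraries did not overlap. C1ra reached 277 and 241 (4.25 ± 0.27, adjusted p = 1.03e-04) and C1s1 716 and 574 (3.42 ± 0.26, adjusted p = 1.85e-04). C4b also rose, from 4.86 and 3.51 to 39.7 and 40.7 (adjusted p = 6.88e-04), as did Serping1 (2.00 ± 0.16, adjusted p = 1.98e-04) and Cd59a (1.08 ± 0.28, adjusted p = 0.0163). C2 was at 12.6 and 5.27 in NPCs and at 15.3 and 8.93 at day 2 and did not pass the test. C3 and C4b were under 10 in NPCs and passed the filter through their day 2 level. The Y-linked feeder genes appeared at this same step, and their part in the increases was not tested. Without day 2 control replicate 1, 6 members were higher, as Cd59a then missed the threshold (adjusted p = 0.102).

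Between day 2 and day 5 of the control, when SSEA1-positive cells were selected, the members parted. C1s1 and Cd59a rose and C1ra, C3, C4b, Serping1 and Cd55 fell, that is, 2 higher and 5 lower of 7 tested, against 34.9% higher and 35.6% lower among all genes. Cd59a rose from 63.1 and 61.5 to 1114 and 1030.2, a log2 difference of 4.08 ± 0.14, adjusted p = 3.37e-06, and C1s1 from 716 and 574 to 1033 and 1202 (0.80 ± 0.13, adjusted p = 0.00155). C4b, which passed the filter only through day 2, fell to 2.52 and 4.44 (-3.23 ± 0.40, adjusted p = 3.52e-04), C3 to 30.3 and 15.1 (-2.57 ± 0.39, adjusted p = 9.81e-04) and Serping1 to 136 and 163 (-2.12 ± 0.15, adjusted p = 2.56e-05). The neighbouring protease genes C1ra and C1s1 thus moved in opposite directions at this step, C1ra falling to 86.7 and 83.5 (-1.59 ± 0.18, adjusted p = 2.15e-04). The selection and the loss of the Y-linked signal fell in the same step and cannot be told apart from time.

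From day 5 to the X-GFP–negative control cells of day 7, 4 of 7 tested members were higher and 0 lower, against 34.2% and 29.5% of all genes. They were Cd55 (0.83 ± 0.11, adjusted p = 3.99e-04), C1s1 (0.42 ± 0.09, adjusted p = 0.00641), C3 (1.14 ± 0.37, adjusted p = 0.0308) and C2 (1.07 ± 0.39, adjusted p = 0.0459). C3 was at 56.0 and 41.8 and C2 at 16.5 and 18.2. C2 had a mean under 10 at day 5 and passed the filter only through its day 7 level. Without X-GFP–negative control replicate 1, C2 (log2 difference 1.14) and C3 (0.93) missed the threshold. Fewer of all genes were then higher as well. C2 also missed it without day 5 control replicate 1 (adjusted p = 0.132) and without X-GFP–negative control replicate 2 (adjusted p = 0.174).

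Within the day 7 control, X-GFP–high cells, in which the reporter X was active, had 1 member higher and 4 lower than X-GFP–negative cells of 8 tested, against 34.7% and 39.3% of all genes. Cd59a fell from 1036 and 1027 to 240.3 and 223 (-2.15 ± 0.09, adjusted p = 1.49e-08), with X-GFP–medium cells between them at 537 and 476. C1s1 fell from 1489.9 and 1488 to 388 and 399 (-1.92 ± 0.08, adjusted p = 1.16e-08), again with the medium cells between at 949.8 and 1006. C1ra (-1.41 ± 0.23) and Cd55 (-0.57 ± 0.10) were the other members that fell. C4b, which passed the filter only through its X-GFP–high libraries, went the other way, from 4.39 and 5.36 in X-GFP–negative and 3.95 and 6.20 in X-GFP–medium to 20.6 and 21.3 in X-GFP–high cells (1.91 ± 0.41, adjusted p = 0.00152). ESCs were then lower than X-GFP–high cells for 8 of 8 tested members, against 37.8% higher and 37.9% lower among all genes, with C3 (-3.80 ± 0.43, adjusted p = 2.60e-06) and C1ra (-3.27 ± 0.42, adjusted p = 8.70e-06) furthest apart. C3, C1ra and C4b had means under 10 in ESCs and passed the filter only through the X-GFP–high libraries. For them a lower level in ESCs was thus fixed by the filter. With DESeq2, 6 members were lower, as C2 (adjusted p = 0.316) and C4b (adjusted p = 0.179) missed the threshold. Over all genes DESeq2 gave 5028 higher and 5138 lower, from 5837 and 5850 with limma. The ESC difference of C4b rested on ESC replicate 2, as its libraries were at 14.7 and 3.81 and without the second the difference was -0.48 (adjusted p = 0.291). C2 missed the threshold without ESC replicate 2 (adjusted p = 0.134), X-GFP–high control replicate 1 (adjusted p = 0.133) or replicate 2 (adjusted p = 0.107).

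At day 2, 6 of 8 tested members were higher with IFNγ and 0 lower, where 5.03% of all tested genes were higher and 3.45% lower. The median log2 difference of the 8 was 2.08, that of all tested genes was 0.01, and that of 18 other complement genes tested was 0.01. The members were chosen with earlier results of these data known. Their excess over all genes, here and in the other comparisons, therefore does not test whether complement genes respond as a set. The 6 were the components C1ra, C1s1, C4b, C2 and C3 and the secreted inhibitor Serping1, and the membrane regulators were not among them. Serping1 was at 685 and 623 in the control libraries and at 5384 and 5820.2 in the IFNγ-treated libraries, 8.56-fold between the means, with a log2 difference of 3.10 ± 0.07, adjusted p = 2.66e-06. The treated libraries lie far above every other library of the series for this gene.

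**Figure D3:**
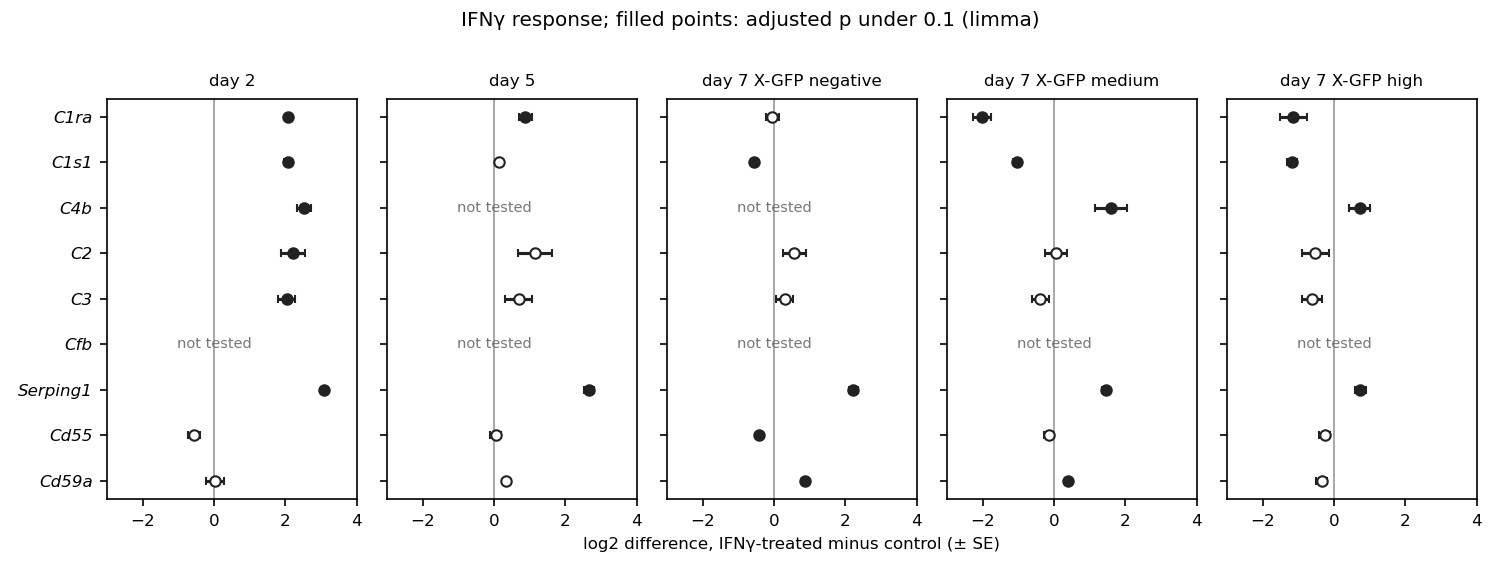
Log2 difference (IFNγ-treated minus control, ± SE) of each complement gene in the 5 populations compared, with filled points for adjusted p under 0.1 and "not tested" where the mean was 10 or less. Serping1 is to the right of 0 in all 5 panels, and C1ra and C1s1 are to the right at day 2 and to the left in the medium and high populations of day 7.

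The classical pathway proteases rose by nearly the same amount at day 2. C1ra went from 277 and 241 to 1133 and 1066 (2.08 ± 0.10, adjusted p = 1.04e-04) and C1s1 from 716 and 574 to 2718 and 2671 (2.07 ± 0.11, adjusted p = 1.25e-04). Of their substrates, C4b went from 39.7 and 40.7 to 218 and 255 (2.52 ± 0.18, adjusted p = 6.96e-04) and C2 from 15.3 and 8.93 to 62.6 and 54.4 (2.22 ± 0.34, adjusted p = 0.0176). C3 went from 167 and 105 to 479 and 625 (2.04 ± 0.24, adjusted p = 0.00671). Cfb was below the filter and was not tested: it had 0 and 4 reads in the control and 9 and 10 in the IFNγ-treated libraries at day 2, and 0 or 1 read in each of the other 20 libraries. Cd55 was at 1961 and 1582 in the control and 1385 and 1019 in the IFNγ-treated libraries, which did not pass the test (adjusted p = 0.116); it passed as lower in the fit with a replicate block, with DESeq2 and without day 2 IFNγ replicate 1. Cd59a was at 63.1 and 61.5 in the control and 75.7 and 52.4 in the treated libraries (adjusted p = 0.98). Of the 8 fibroblast genes, 4 (Col1a1, Col1a2, Thy1 and Postn) were lower with IFNγ at this day, and their part in the members' differences was not tested. With a replicate block, 2652 of all 15697 genes were higher and 2343 lower at day 2, from 790 and 542 without it.

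Scaled by exon length, Serping1 led the members in the day 2 IFNγ-treated cells, with 2409 normalized counts per kb, followed by C1s1 at 861, C1ra at 369, Cd55 at 248 and C3 at 107. In the day 2 control cells Cd55 led with 365, ahead of Serping1 at 281 and C1s1 at 206. At day 5 Cd59a led in both arms, at 592 in the control and 744 in the IFNγ-treated cells.

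**Figure D4:**
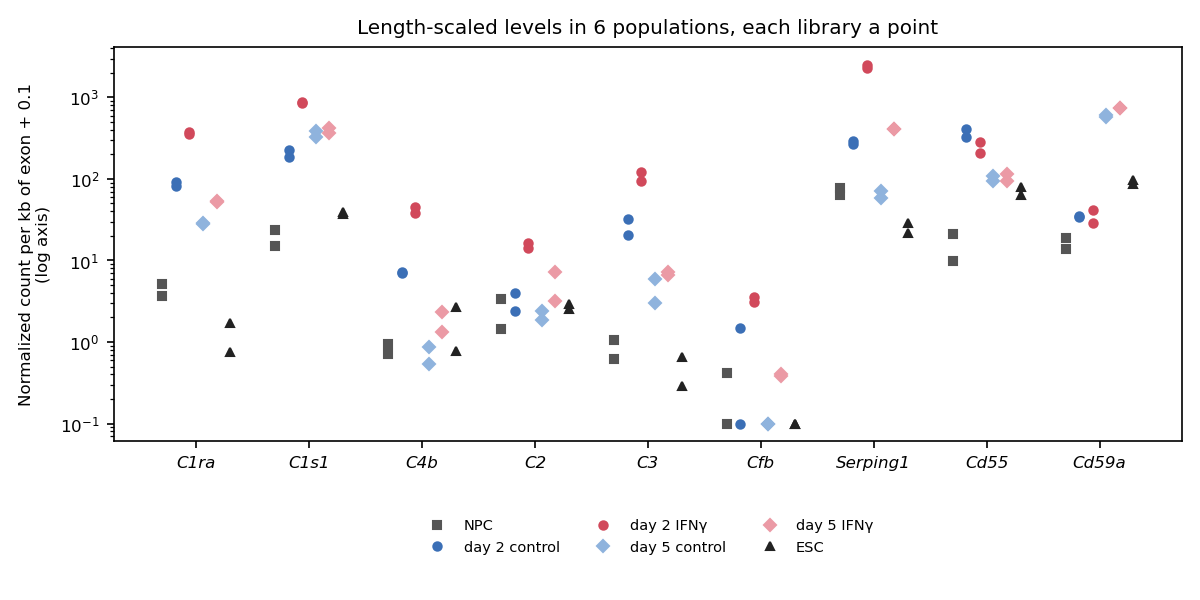
Normalized count per kb of exon + 0.1 (log axis) of each complement gene in the 2 libraries of NPCs, day 2 and day 5 cells of both arms, and ESCs. Serping1 at day 2 with IFNγ is the highest set of points, and Cfb the lowest gene throughout.

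At day 5, 2 of 7 tested members were higher with IFNγ and 0 lower, where 1.65% of all genes were higher and 0.535% lower. Serping1 was again far apart, at 136 and 163 in the control and 951 and 959 in the IFNγ-treated libraries (2.67 ± 0.14, adjusted p = 2.92e-04). C1ra went from 86.7 and 83.5 to 159 and 156 (0.88 ± 0.18, adjusted p = 0.0974). Its libraries did not overlap, but it lay close to the threshold, and without any 1 of the 4 libraries its adjusted p was 0.103 to 0.371. C1s1 was at 1033 and 1202 in the control against 1133 and 1323, which overlapped (adjusted p = 0.569), and C3 was at 30.3 and 15.1 against 36.2 and 34.0 (adjusted p = 0.38). With a replicate block, 4 members were higher at day 5, with C2 and Cd59a added, but 1810 of all 15133 genes were then higher and 1569 lower, from 249 and 81. C2 passed the filter only through its treated libraries. Of all genes, 1422 were higher and 1078 lower with all 24 libraries in 1 fit, and 971 higher and 852 lower without day 5 IFNγ replicate 1. C4b, with 3 and 5 reads in the control and 8 and 16 in the IFNγ-treated libraries, was below the filter.

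Day 7 cells had been without IFNγ for 2 days. In X-GFP–negative cells 2 of 7 tested were higher and 2 lower, where 31.1% of all genes were higher and 30.8% lower. Serping1 was at 127 and 112 in the control and 591 and 534 in the treated libraries (2.23 ± 0.13, adjusted p = 2.71e-06), and Cd59a at 1036 and 1027 against 1943 and 1826 (0.87 ± 0.07, adjusted p = 1.78e-05). C1s1 was lower, at 1489.9 and 1488 against 1002 and 997 (-0.57 ± 0.07, adjusted p = 1.71e-04), as was Cd55 (-0.42 ± 0.10, adjusted p = 0.00554), while C1ra overlapped between the arms (adjusted p = 0.824). Rescaling the libraries to the same total moved the median gene in this comparison by 0.16 and the split of all genes from 4836 higher and 4781 lower to 6730 and 3417, and the 2 lower members stayed lower.

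In X-GFP–medium cells 3 of 8 tested members were higher and 2 lower, against 33.3% and 29.6% of all genes. Serping1 was at 168 and 162 in the control and 448 and 460.1 in the treated libraries (1.45 ± 0.11, adjusted p = 5.02e-06), C4b at 3.95 and 6.20 against 21.3 and 13.6 (1.59 ± 0.46, adjusted p = 0.0138) and Cd59a at 537 and 476 against 683 and 650.3 (0.40 ± 0.10, adjusted p = 0.00536). C4b passed the filter only through its treated libraries, and its call was lost with DESeq2 (adjusted p = 0.112). The protease genes were lower, C1ra at 85.0 and 106 in the control and 20.2 and 25.1 in the treated libraries (-2.03 ± 0.25, adjusted p = 8.90e-05) and C1s1 at 949.8 and 1006 against 441 and 506 (-1.05 ± 0.09, adjusted p = 1.20e-05). Without X-GFP–medium IFNγ replicate 1, C4b dropped below the filter. More members then passed as lower, and so did more of all genes.

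In X-GFP–high cells 2 of 8 tested were higher and 2 lower, against 18.1% and 20.4% of all genes. C1s1 was at 388 and 399 in the control and 165 and 181 in the treated libraries (-1.18 ± 0.13, adjusted p = 5.28e-05) and Serping1 at 132 and 146 against 238 and 225 (0.73 ± 0.15, adjusted p = 0.00366). The other calls were less firm: C1ra was at 47.4 and 32.02 against 25.1 and 11.6 (-1.14 ± 0.39, adjusted p = 0.0428), and C4b, at 20.6 and 21.3 against 34.3 and 35.8 (0.71 ± 0.29, adjusted p = 0.0869), missed the threshold without any 1 of the 4 libraries (adjusted p = 0.124 to 0.300). C1ra missed it without control replicate 1 (adjusted p = 0.300) and without IFNγ replicate 2 (adjusted p = 0.178). Over the libraries left out in turn, 1 to 5 members were lower, with 5 (C3, Cd55 and Cd59a added) without IFNγ replicate 1, and 1 member, Serping1, was higher.

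The marker lists also differed between the arms at day 7. The sum of 4 pluripotency genes, Nanog, Zfp42, Esrrb and Dppa5a, was 13437 to 15256 in the control and 21294 to 23126 in the treated X-GFP–negative libraries, 33952 to 35094 and 56690 to 59687 in X-GFP–medium, and 71774 to 75447 and 86036 to 89636 in X-GFP–high libraries. The fibroblast sum was 4443 to 5065 in the control and 1025 to 1035 in the treated X-GFP–negative libraries, 5042 to 5612 and 690 to 743 in X-GFP–medium, and 2125 to 2614 and 612 to 686 in X-GFP–high libraries. Dcn made up most of the control sum in each population, and in X-GFP–medium cells it was at 5019.6 and 4472 in the control and 166 and 242 in the treated libraries. The macrophage sum was 2491 to 2962 in the control and 1063 to 1182 in the treated X-GFP–negative libraries, 1869 to 2181 and 996 to 1216 in X-GFP–medium, and 1133 to 1279 and 521 to 697 in X-GFP–high libraries. Cd68 made up most of it in every day 7 library, and Adgre1, Aif1 and Tyrobp were at 0 to 2.97 in all of them. The sum of 6 neural precursor genes was 4771 to 4838 in the control and 4989 to 5200 in the treated X-GFP–negative libraries, 2983 to 3235 and 1548 to 1852 in X-GFP–medium, and 1569 to 1631 and 711 to 747 in X-GFP–high libraries. The pluripotency sum was thus higher and the fibroblast and macrophage sums lower with IFNγ in all 3 populations. The neural precursor sum was lower in the medium and high populations. The fibroblast genes other than Dcn did not move together. Pdgfrb was higher with IFNγ in X-GFP–negative (log2 difference 1.04) and X-GFP–medium cells (0.92), Col3a1 in X-GFP–medium (1.03) and Thy1 in X-GFP–high cells (0.82). Col1a1 (-0.93), Col1a2 (-0.64) and Thy1 (-1.31) were lower in X-GFP–medium cells. The part of the marker genes in the members' differences was not tested.

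The difference of the IFNγ response between stages was tested in a fit with both stages. Between day 2 and day 5 the response was smaller at day 5 for C1s1 (-1.93 ± 0.18, adjusted p = 0.00232) and for C1ra (-1.21 ± 0.18, adjusted p = 0.0279), which were 2 of 8 tested members. Among all genes, 0.202% had a higher and 0.474% a lower log2 response at day 5. Serping1 did not pass this test (-0.43 ± 0.15, adjusted p = 0.388). The C1ra difference missed the threshold without day 2 control replicate 2 (adjusted p = 0.145), day 2 IFNγ replicate 1 (adjusted p = 0.212) or day 2 IFNγ replicate 2 (adjusted p = 0.162).

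Between day 5 and the X-GFP–negative cells of day 7 the log2 response of Cd59a was higher, from 0.33 to 0.87 (0.54 ± 0.11, adjusted p = 0.00607). It was lower for C1ra, from 0.88 to -0.05 (-0.93 ± 0.25, adjusted p = 0.0199). C1s1 went from 0.14 to -0.57 (-0.71 ± 0.14, adjusted p = 0.00606) and Cd55 from 0.04 to -0.42 (-0.46 ± 0.18, adjusted p = 0.0811). Both passed as lower with IFNγ at day 7 and did not pass at day 5. These were 1 higher and 3 lower of 7 tested, against 17.8% and 22.5% of all genes. Under rescaling to the same total this split was 4133 and 2428 genes, from 2746 and 3465, and Cd55 missed the threshold (adjusted p = 0.203). The Cd55 difference also missed it without day 5 control replicate 2 (adjusted p = 0.213), day 5 IFNγ replicate 2 (0.222), X-GFP–negative control replicate 1 (0.212) or 2 (0.138), or X-GFP–negative IFNγ replicate 2 (0.254). From X-GFP–negative to X-GFP–high cells the log2 response of Serping1 was lower, at 2.23 and 0.73 (-1.49 ± 0.19, adjusted p = 8.88e-04). That of Cd59a went from 0.87 to -0.35, the latter not past the threshold (-1.22 ± 0.15, adjusted p = 8.48e-04). For C1s1 it went from -0.57 to -1.18, a stronger decrease (-0.61 ± 0.12, adjusted p = 0.00909). These were 3 lower of 8 tested with 0 higher, against 9.43% higher and 13.3% lower among all genes. Rescaling changed this split from 1487 and 2101 genes to 656 and 4071.

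Several of these comparisons had 0 members called in one direction by limma. At an unadjusted p under 0.05 limma then gave 1 member, Cd55, as lower with IFNγ at day 2, which DESeq2 called and edgeR did not. It also gave Cd55 a higher log2 response at day 5 than at day 2, which neither called. Other zero counts were lower with IFNγ at day 5, lower from NPCs to day 2 and lower from day 5 to X-GFP–negative cells. The rest were higher in ESCs and a higher log2 response in X-GFP–high cells. For all of these, the unadjusted count and the counts by DESeq2 and edgeR were 0 as well.

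Other genes of the pathway were counted from a list of 45, of which 44 were in the table and 18 had a mean above 10 over the 24 libraries. C1qa, C1qb and C1qc, which encode the recognition part of the C1 complex, did not exceed 3.96 normalized counts in any library, and C9, which forms the pore, was listed at 0 in all. At day 2, 2 of 18 tested were higher with IFNγ and 0 lower, beside 5.03% and 3.45% of all genes: C1s2, the copy of C1s1 (1.80 ± 0.25, adjusted p = 0.0116), and Clu, which encodes the fluid-phase inhibitor clusterin (0.61 ± 0.15, adjusted p = 0.0877). C4a was at 123 and 138 in the control and 148 and 149 in the IFNγ-treated libraries and did not pass. At day 2, 1 gene of the list was lower at an unadjusted p under 0.05 in limma, and 0 were called lower by DESeq2 or edgeR. At day 5, limma called 0 of 13, with 1 higher and 1 lower at an unadjusted p under 0.05, and DESeq2 and edgeR also called 0. At day 7, 3 were higher and 3 lower of 15 in X-GFP–negative, 4 and 3 of 11 in X-GFP–medium, and 2 and 2 of 14 in X-GFP–high cells, beside 31.1% and 30.8%, 33.3% and 29.6%, and 18.1% and 20.4% of all genes. With DESeq2 the counts were 3 and 2, 1 and 3, and 1 and 1. In X-GFP–high cells C7, called higher, had means of 5.21 in the control and 27.0 in the treated libraries and passed the filter only through the latter. Clu was lower in all 3, with log2 differences of -1.39, -1.65 and -1.41. Cd59b, the copy of Cd59a, was higher in all 3 (0.85, 0.58 and 0.91), with limma adjusted p = 0.0168, 0.0848 and 0.0633, the last 2 close to the threshold. Cfp, the X-linked gene of properdin, was lower in all 3 (-0.95, -1.13 and -0.43).

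The levels of each member were set beside those of all other genes with a mean above 100, by Pearson correlation of log2(normalized count + 1) over the 24 libraries, which share populations and treatment. The nearest genes to Serping1 were Ifi47 (r = 0.97), Tgtp2 (r = 0.96) and Gm4951 (r = 0.95). For C1ra they were B2m (r = 0.97), Ifi202b (r = 0.94) and Gbp7 (r = 0.94), and for C1s1 Samhd1 (r = 0.96), Ly6c1 (r = 0.95) and Shisa5 (r = 0.94). For C3 they were Serpina3n (r = 0.95), Ifi27 (r = 0.92) and Stambpl1 (r = 0.91), for C4b Il6st (r = 0.89), Rmdn3 (r = 0.87) and Stat2 (r = 0.86) and for C2 Nlrc5 (r = 0.83), Socs1 (r = 0.81) and H2-K1 (r = 0.79). Cd55 and Cd59a had other neighbours, Rab27a (r = 0.94), Pllp (r = 0.92) and Tspan8 (r = 0.92) for Cd55, and Unc45b (r = 0.97), Naprt (r = 0.96) and Hltf (r = 0.96) for Cd59a. Cfb, with few or no reads in most libraries, was nearest to H2-T23 (r = 0.86), Uba7 (r = 0.83) and Gbp9 (r = 0.82). Among the members themselves, C1ra and C3 were the most alike (r = 0.90) and C4b and Cd59a the least (r = -0.44).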

How the data were processed

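The authors aligned stranded, ribosomal-RNA-depleted paired-end reads with STAR to a SNP-masked mm10, counted them over genes with HTSeq 0.6.1 and normalized with DESeq2. The annotation release is not given in the sources used here. The deposited values are a signal, read counts divided by a size factor; every value was a whole multiple of the library's smallest value (tolerance 0.01), so whole reads were recovered. Groups came from the labels. The study calls the 2 replicates of a population independent, without saying what separated them, and p-values measure the spread between these libraries. Each comparison was fitted with limma 3.58.1 (R 4.3.3) on log2(value + 1) over its own libraries, for genes with a mean above 10, with Benjamini-Hochberg adjustment over all of them. An exact permutation of 2 against 2 libraries cannot go below p = 0.333. The tests were checked on simulated data. Alternatives were a pseudocount of 0.1, no filter, equal totals, all libraries in 1 fit, a replicate block, DESeq2 1.42.0 and edgeR 4.0.16 on whole reads, and each library left out. Members and lists were chosen with earlier results of these data known; the text names the 9 members, listed pathway genes past the threshold with IFNγ, and the 3 nearest genes per member. A table of allelic proportions of X-linked genes was not used. A gene and a promoter motif that were also examined are not reported here.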

Additional observations from a re-analysis of the deposited data

Results flagged for a closer look

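The IFNγ response of 5 members differed between stages by a test of the difference itself (limma interaction, adjusted p under 0.1). At day 5 against day 2 the log2 response was lower for C1ra (-1.21) and C1s1 (-1.93), against 0.202% higher and 0.474% lower among all genes. In X-GFP–negative day 7 cells against day 5 it was lower for C1ra (-0.93), C1s1 (-0.71) and Cd55 (-0.46) and higher for Cd59a (0.54). All genes were then 17.8% higher and 22.5% lower. In X-GFP–high against X-GFP–negative cells it was lower for C1s1 (-0.61), Serping1 (-1.49) and Cd59a (-1.22), against 9.43% higher and 13.3% lower. The calls of C1ra and Cd55 were lost under some alternatives. Between day 2 and day 5, time and the collected population change together, and between day 5 and day 7 also the withdrawal of IFNγ, so these cannot be told apart. The X-GFP–high and X-GFP–negative cells were both of day 7.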

How the results depend on the processing

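Of 61 calls on single members, 48 were kept under every alternative that gave a value and 13 were lost under at least 1; 0 were reversed. The member counts that moved by over 1.5 times are given here, and the cause was not tested. With IFNγ at day 2, 1 member was lower with a replicate block and with DESeq2 (0 to 1 over the left-out libraries). At day 5, members higher were 1 with no filter, 4 with all libraries in 1 fit and 4 with a replicate block (1 to 2 left out). In X-GFP–negative cells 1 member was lower with all libraries in 1 fit. In X-GFP–medium cells members lower were 2 to 4 over the left-out libraries. In X-GFP–high cells, 1 member was higher with no filter, all libraries in 1 fit, a replicate block or DESeq2 (1 left out), and members lower were 1 with no filter, 4 with a replicate block and 1 with DESeq2 (1 to 5 left out). From control day 5 to X-GFP–negative, members higher were 2 with DESeq2 (2 to 4 left out) and lower 1 with equal totals and 1 with all libraries in 1 fit (0 to 1 left out). From X-GFP–negative to X-GFP–high, 2 members were higher with equal totals. For the response at day 5 against day 2, 1 member was lower with all libraries in 1 fit (1 to 2 left out). For X-GFP–high against X-GFP–negative, members lower were 6 with equal totals and 5 with a replicate block (3 to 5 left out). Counts over all genes moved with the settings too. Genes higher and lower with IFNγ were 790 and 542 at day 2 (481 and 212 with no filter, 2652 and 2343 with a replicate block, 463 to 606 and 173 to 392 left out), 249 and 81 at day 5 (134 and 7 with no filter, 1422 and 1078 in 1 fit, 1810 and 1569 with the block, 556 and 356 with DESeq2, 107 to 971 and 5 to 852 left out) and 2830 and 3175 in X-GFP–high cells (1664 and 2465 with no filter, 1595 and 2539 with DESeq2, 967 to 3187 and 1774 to 3657 left out). Genes with a higher and lower log2 response at day 5 than at day 2 were 32 and 75. They were 151 and 165 in 1 fit, 59 and 111 with the block and 121 and 139 with DESeq2. In X-GFP–negative cells against day 5 they were 2746 and 3465 (1634 to 2765 and 2282 to 3501 left out), and in X-GFP–high against X-GFP–negative cells 1487 and 2101 (734 to 1433 and 1219 to 2106 left out), with equal totals as given above. At day 5 the rise of the member count from 2 to 4 thus came with a rise over all genes. Where 1 library was left, it was assumed to vary like the other group. The labels do not say that equal replicate numbers share a culture. The deviations of equally numbered control and IFNγ libraries correlated over genes at 0.41 (day 2), 0.36 (day 5), 0.19, 0.11 and 0.02 (X-GFP–negative, –medium and –high), so the replicate block was kept as an alternative. Cfb was at 10 reads or fewer in every library.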
